A study of Bos taurus with 20 samples.

Results

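The genes that govern the cyclic nucleotides of meiotic arrest were described across the cells of the bovine ovarian follicle. NPPC, NPR2, NPR3, GPR3, ADCY3, PDE3A, PDE4D, PDE5A, PDE8A and PRKG1 were taken by the gene symbols that their probes carry on the array, which gave 10 genes out of 22550 genes or transcripts measured. Together they had 30 spots with 21 distinct probe sequences on 12 annotated transcripts. Expression was measured on 20 one-colour arrays of Bos taurus cells from antral follicles of 3 to 6 mm, with 4 arrays, described as biological replicates, for each of theca cells (TH), mural granulosa cells (GC), cumulus cells (CC), CC after 4 h of in vitro maturation (CC-IVM), and oocytes (OO). All cells were labelled immature and came from ovaries collected after slaughter. Neither the breed nor the age of the animals is given in the sources used here, nor how many animals contributed to an array. TH were scraped from the follicle wall, GC and cumulus-oocyte complexes were separated from the punctured follicles, and 200 ng of total RNA was labelled per array.

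Meiosis in the mammalian oocyte is held in prophase by cAMP, which is made in the oocyte by adenylyl cyclases under the constitutively active receptor GPR3. Mural granulosa cells release C-type natriuretic peptide, the product of NPPC, which acts on the guanylyl cyclase receptor NPR2 of cumulus cells, and the cGMP so formed passes through gap junctions into the oocyte and inhibits the cAMP-degrading enzyme PDE3A. The gonadotropin surge lowers cGMP, and meiosis then resumes.

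The probe sequences behind the clearest and the least certain signals are given first, 5′ to 3′ as in the array files. PDE3A is shown because both of its sequences separated the oocyte from every other cell type, and capitals mark the 53 bases that these overlapping probes share, so that they are not independent probes. The NPPC sequence is the one shared by transcripts NPPC-201 and NPPC-202, and it disagreed with the other NPPC probes. The sequences of NPR2, GPR3 and PRKG1 carried the differences described below for the receptor, the oocyte receptor and the kinase.
PDE3A sequence 1: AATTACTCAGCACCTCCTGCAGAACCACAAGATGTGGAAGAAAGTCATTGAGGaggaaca
PDE3A sequence 2: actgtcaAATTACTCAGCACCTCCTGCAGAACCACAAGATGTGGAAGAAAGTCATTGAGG
NPPC sequence 1: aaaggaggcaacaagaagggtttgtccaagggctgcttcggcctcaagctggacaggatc
NPR2 sequence 1: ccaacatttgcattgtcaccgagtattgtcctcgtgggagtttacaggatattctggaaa
NPR2 sequence 2: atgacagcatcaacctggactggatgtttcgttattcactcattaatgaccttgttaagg
GPR3 sequence 1: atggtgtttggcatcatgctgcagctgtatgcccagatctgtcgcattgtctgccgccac
GPR3 sequence 2: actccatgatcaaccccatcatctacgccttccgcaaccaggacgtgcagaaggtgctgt
PRKG1 sequence 1: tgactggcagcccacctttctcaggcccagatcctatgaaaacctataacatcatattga
PRKG1 sequence 2: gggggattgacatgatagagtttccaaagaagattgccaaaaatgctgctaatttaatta
None of the 30 spots had a sequence that the array also used for another gene. The GC content of the 21 sequences was 35.0 to 55.0%, with a median of 45.0%, the same as the median of all array probes. On the UMD 3.1 build, the array files place NPPC-201 at chr2:120392634-120397261, NPR2 at chr8:60368097-60379016, NPR3 at chr20:40967082-41041629, and GPR3 at chr2:126478728-126479720. PDE3A lies at chr5:89554512-89620721, PDE4D at chr20:20268721-20321935, PDE5A at chr6:6874055-7070187, PDE8A at chr21:23119315-23262118, ADCY3 at chr11:74382509-74465215, and PRKG1 at chr26:6906081-8343629. These are the spans of the annotated transcripts, not of the probes.

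A level below is the background-subtracted intensity on the log2 scale, set relative to the 75th percentile of its array, and the value of a gene is the median of its spots. Differences are in log2 as well. Levels of different genes rest on different probes and are not compared. A gene is called above background on an array where the scanner software marked at least 1 of its spots as well above background. A gene that changed is one with an adjusted p under 0.05 (limma, Benjamini–Hochberg over all 22550 genes). The share of probes well above background was 54.2 to 62.8% on the arrays of somatic cells and 62.6 to 68.8% on OO 1, OO 3 and OO 4, but 49.3% on OO 2, whose lowest signal well above background was at -4.02 against -6.84 to -5.91 on the other OO arrays. The 6 oocyte markers, namely the oocyte growth factors GDF9 and BMP15, the zona genes ZP2 to ZP4 and the maternal gene NLRP5, had a summed linear level of 248 to 330 times the 75th percentile in OO and at most 3.00 elsewhere, and the 4 theca markers reached 421 to 667 in TH and at most 99.7 elsewhere. In such bulk samples, fewer cells of a type and less RNA per cell cannot be told apart.

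The plot of the 10 genes by array shows how unevenly they were spread over the follicle. PDE3A, PDE5A and PRKG1 were highest in the oocyte, NPR3 was highest in GC and CC, NPR2 was highest in CC, and PDE8A was above background on all arrays, with its highest levels in the granulosa lineage. PDE4D was not above background on any of the 20 arrays. The F-test over TH, GC, CC and OO called 9 of the 10 genes, all but PDE4D (adjusted p = 0.41), against 71.3% of all genes. Among single spots, 24 of the 30 were called by the same test, against 67.5% of all spots. Between pairs of cell types, 5 of the 10 genes differed between TH and GC (26.3% of all genes), 7 between TH and CC (31.8%), 6 between TH and OO (64.6%), 1 between GC and CC (9.88%), 8 between GC and OO (68.6%), and 7 between CC and OO (63.7%). Several of these shares lie near the share of all genes, and 10 genes allow no reading of such a gap.

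**Figure D1:**
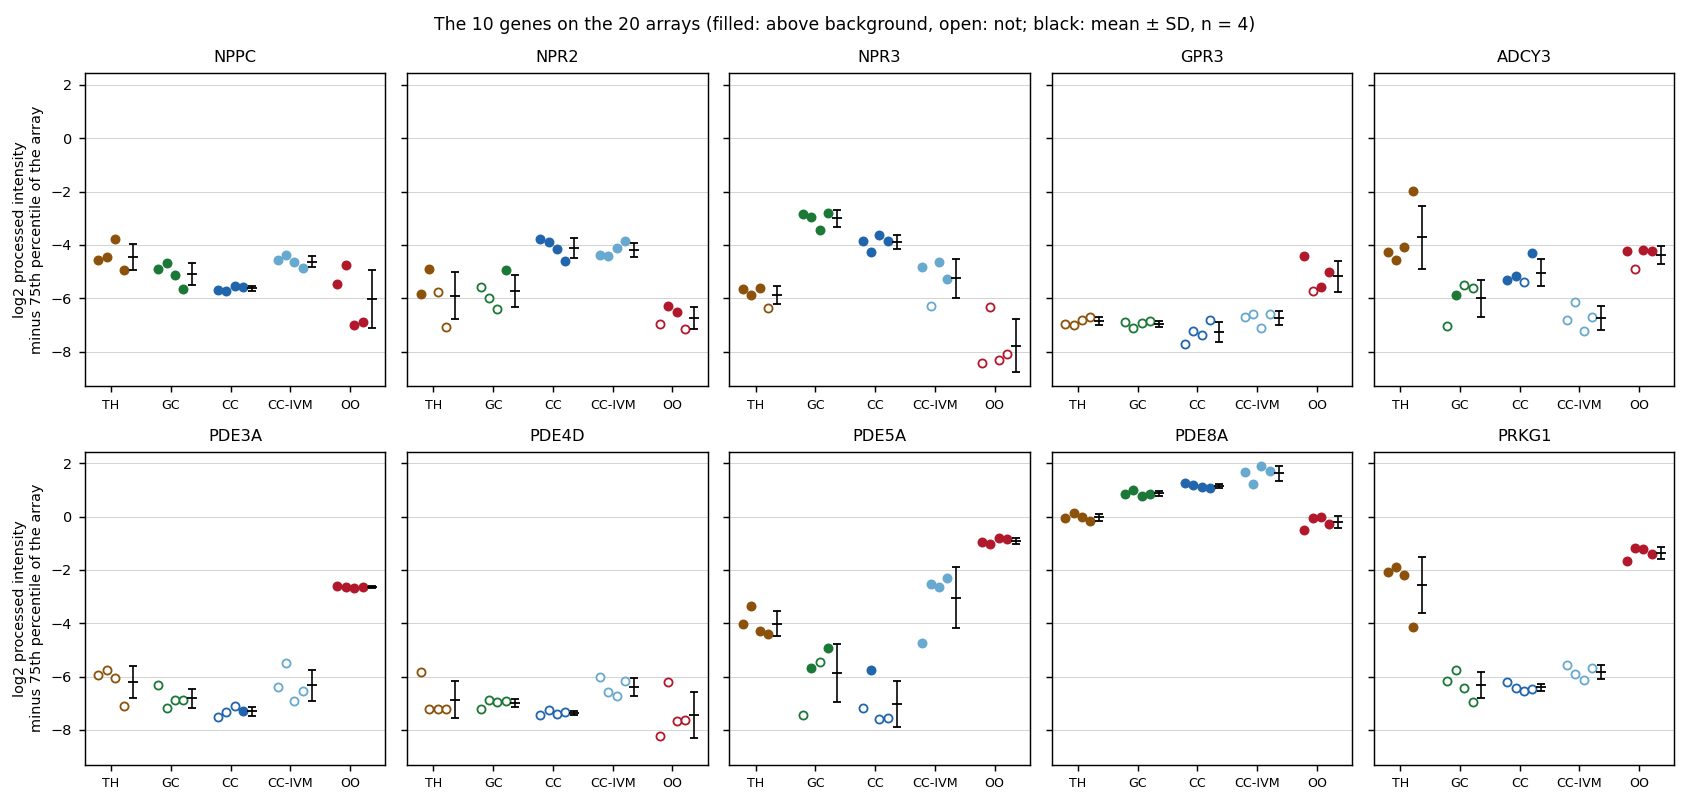
Level of each of the 10 genes (y axis, log2 processed intensity relative to the array's 75th percentile) on the 4 arrays of each group (x axis). Filled points are above background, open points are not, and black marks are the mean ± SD. PDE3A, PDE5A and PRKG1 sit highest in OO, whereas PDE4D has open points only.

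NPPC encodes the ligand, and its probes disagreed, so it is given by sequence. The brightest sequence, on NPPC-202, had levels of 0.38, 0.06, 0.98 and -0.82 in TH 1 to 4 and of 0.40, -0.37, 0.57 and 0.05 in GC 1 to 4. In CC the levels were -0.64, -0.76, -0.30 and -0.75, and in OO they were -3.20, -3.18, -3.19 and -3.15. Signal in the somatic cells was thus well above that of the oocyte on every array, while TH, GC and CC overlapped in part. The difference between OO and the somatic mean (the mean over TH, GC and CC) was -3.08 ± 0.25 (SE; adjusted p = 2.4e-08, limma over all spots). The difference of CC from GC was -0.78 ± 0.31 with an adjusted p of 0.15.

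The NPPC-201 sequence ranged from -4.59 to -3.23 over TH, GC and CC, above background on all these arrays. It was lower in OO by 1.78 ± 0.36 (adjusted p = 0.00041), although OO 1, at -4.05, lay among the somatic arrays. The shared sequence, printed above, was above background on 2 of 8 spots in TH, 1 of 8 in OO, and on no spot in GC, CC or CC-IVM. By the median over the 4 spots, which mixes these signals, NPPC was lower in OO than in the somatic mean by 0.97 ± 0.34 (adjusted p = 0.020). That call was lost without OO 3 (difference -0.65, adjusted p = 0.12) or without OO 4 (-0.69, adjusted p = 0.11), and within slide 1 (-0.11, adjusted p = 0.78). The median also differed between TH and CC by 1.19 ± 0.42 (adjusted p = 0.042), a call that was lost on leaving out any of TH 1, TH 2, TH 3, GC 1, GC 3 or a CC array, with a difference of 0.97 and an adjusted p of 0.13 without TH 3.

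**Figure D2:**
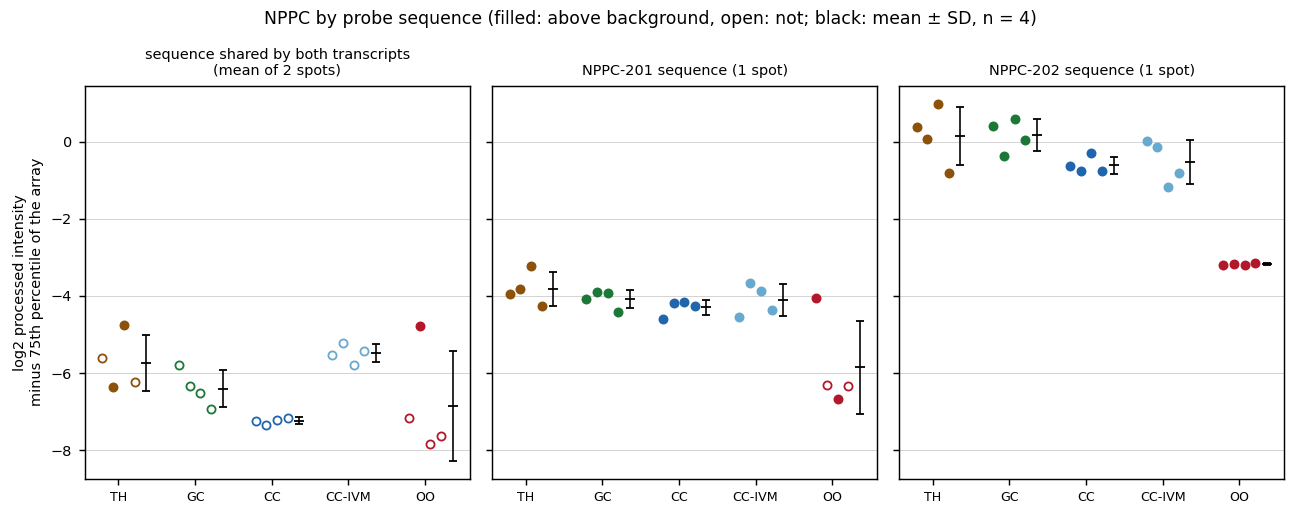
NPPC by probe sequence: level (y axis, log2 processed intensity relative to the array's 75th percentile) on the 4 arrays of each group (x axis), filled where above background, with the mean ± SD in black. Only the NPPC-202 sequence separates OO, at -3.20 to -3.15, from all somatic arrays, and the shared sequence is mostly open.

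NPR2 is the guanylyl cyclase that CNP activates. Its levels were -3.78, -3.88, -4.16 and -4.62 in CC 1 to 4, above background on all of them. In GC they were -5.59, -5.99, -6.39 and -4.95, of which only GC 4 was above background. In TH they were -5.85, -4.91, -5.76 and -7.07, with TH 1 and TH 2 above background. Every CC array thus exceeded every GC and TH array. NPR2 was the only one of the 10 genes that differed between CC and GC, higher by 1.62 ± 0.40 in CC (adjusted p = 0.018), where 5.28% of all genes were higher and none of the 10 was lower (4.61% of all genes). Because GC was mostly at background, the difference is best given as a bound, at least 1.90-fold. The call was lost without GC 2 (difference 1.53, adjusted p = 0.051), GC 3 (1.40, 0.064), CC 1 (1.51, 0.056) or CC 2 (1.54, 0.056). It was also lost within either slide, each with 2 arrays a group, at 1.96 (adjusted p = 0.11) and 1.28 (0.43), and with normexp background correction, which left a difference of 0.11 (0.69). Here and below, that correction adds an offset of 50 to each signal before log2, and an added constant shrinks log2 differences between dim spots most. The distance of CC from TH, at least 2.06-fold, had an adjusted p of 0.0026.

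In OO, NPR2 was at -6.97, -6.30, -6.50 and -7.16, above background on OO 2 and OO 3, and it was lower than in the somatic mean by 1.49 ± 0.33 (adjusted p = 0.00077). On OO 2 only 1 spot, of sequence 1, was above background, at -3.07, while the other spot of that sequence was at -6.32. CC exceeded OO at least 3.27-fold. In TH, it was lower than in the mean of GC and CC by 0.98 ± 0.35 (adjusted p = 0.042), but this call was lost without TH 1, TH 3, TH 4, GC 1, GC 4, CC 1, CC 2 or CC 3, with an adjusted p of 0.058 to 0.18 (difference -0.59 without TH 4), with normexp background correction (-0.37, adjusted p = 0.16) and within either slide. Both NPR2 sequences had the same order of CC above GC and TH, with means of -3.70, -5.49 and -5.71 for the sequence 1 and of -4.40, -6.11 and -6.26 for the sequence 2.

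NPR3, the clearance receptor, binds natriuretic peptides without making cGMP and removes them. Its levels were -2.83, -2.94, -3.45 and -2.80 in GC and -3.85, -4.26, -3.61 and -3.87 in CC, all above background. In TH they were -5.66, -5.87, -5.60 and -6.38, with all but TH 4 above background. In OO the gene was not above background on any array. The order was therefore GC, CC, TH and OO, in which GC and CC, although their arrays did not overlap, were not told apart (difference 0.89 ± 0.37, adjusted p = 0.17). That difference was called without OO 2, which changes only the estimate of the spread (adjusted p = 0.013), and with quantile normalization (CC minus GC, -0.83, adjusted p = 0.0084). GC exceeded TH by 2.87 ± 0.37 (adjusted p = 3.3e-05). No fold is given for this pair, since sequence 2 was not above background on any TH array and lowered the median there. By sequence 1 alone, the means were -2.27 in GC and -4.63 in TH. GC exceeded OO at least 7.44-fold. CC exceeded OO at least 4.01-fold. For TH against OO the bound was 1.02-fold by the median, which sequence 2 lowered in TH here too. By sequence 1 alone, the TH mean of -4.63 lay above the lowest detectable signal in OO, -5.90 as a mean over its arrays, but not above that of OO 2, -4.02. Sequence 1 was the brighter in each group above background, and in TH only this sequence gave signal, on 3 arrays.

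GPR3 is the receptor that keeps cAMP high in the oocyte, and here its signal was at the limit of detection. Levels in OO were -4.43, -5.72, -5.56 and -5.01, above background on all but OO 2. No spot was above background in TH, GC, CC or CC-IVM, where levels ran from -7.70 to -6.58. OO was higher than the somatic mean by 1.85 ± 0.21 (adjusted p = 7.3e-07) and its arrays did not overlap the others. The bound was 1.07-fold over TH and 1.17-fold over CC, and none could be given over GC. With normexp background correction the difference turned to -0.76 (adjusted p = 0.00068), and in the deposited table, without background subtraction, it was 0.31 (adjusted p = 0.045), while its F-test was not passed there (adjusted p = 0.17). Both sequences were above background on the same number of OO arrays, 3 of 4.

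ADCY3 encodes an adenylyl cyclase that makes cAMP. Its levels were -4.26, -4.55, -4.08 and -1.98 in TH and -4.22, -4.89, -4.19 and -4.23 in OO, where OO 2 was not above background. In CC they were -5.32, -5.15, -5.39 and -4.29, with CC 3 not above background, and in GC, from -7.03 to -5.50, only GC 2 was. TH 4 stood about 2 log2 units above the other TH arrays, on both ADCY3 sequences. TH exceeded the mean of GC and CC by 1.80 ± 0.43 (adjusted p = 0.0037), and by 1.22 (adjusted p = 0.0085) without TH 4. This call was lost with normexp background correction (0.49, adjusted p = 0.059) and within slide 1 (1.44, adjusted p = 0.057). Over GC the bound for TH was 2.49-fold, from the TH mean that includes TH 4. OO exceeded GC at least 1.57-fold (adjusted p = 0.0087). The order was TH, OO, CC and GC, of which no neighbours were told apart (adjusted p = 0.24 to 0.28). OO did not pass against the somatic mean (0.54 ± 0.40, adjusted p = 0.22), but without TH 4 the difference was 0.73 (adjusted p = 0.028), and with normexp background correction it turned to -0.80 (adjusted p = 0.00024).

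PDE3A, the phosphodiesterase that cGMP inhibits and that degrades cAMP in the oocyte, had the tightest replicates of the 10 genes in OO. Its levels there were -2.62, -2.64, -2.70 and -2.63, or -2.65 ± 0.03 (SD, n = 4). In TH, GC and CC the means were -6.21, -6.82 and -7.30, not above background except for 1 spot on CC 4, at -4.42. The 2 spots of that same sequence differed on CC 4, since the other was at -7.60. CC 4 was also the CC array with the highest summed level of oocyte markers, 3.00 against 0.561 to 1.33 on CC 1 to 3, and the part of oocyte RNA in that spot was not tested. OO was higher than the somatic mean by 4.13 ± 0.21 (adjusted p = 4.2e-11), at least 6.23-fold over TH, 5.22-fold over GC and 6.79-fold over CC. In TH it was called higher than in GC and CC (0.85 ± 0.22, adjusted p = 0.0066), but with no TH or GC array above background no fold is given, and with normexp background correction the sign turned (-0.09, adjusted p = 0.70).

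PDE5A degrades cGMP. Its levels were -0.94, -1.04, -0.82 and -0.83 in OO and -4.02, -3.35, -4.30 and -4.40 in TH, all above background. In GC they were -7.45, -5.67, -5.44 and -4.94, with GC 2 and GC 4 above background, and in CC they were -7.18, -5.75, -7.58 and -7.55, with only CC 2 above it. By this median of its spots, OO and TH were clear of each other and of the granulosa lineage. Its sequences disagreed in part, however. By sequence 2 alone, GC 2 (-4.02) and CC 2 (-4.05), both above background, lay among the TH arrays (-4.32 to -2.91). Sequence 1 was not above background on any GC or CC array. OO exceeded TH by 3.11 ± 0.48, or 8.62-fold (adjusted p = 3.1e-05), GC at least 17.4-fold and CC at least 22.7-fold. By the median, TH exceeded GC at least 2.02-fold and CC at least 2.63-fold, but the difference of TH from their mean, 2.43, was lost with normexp background correction (0.38, adjusted p = 0.062). GC and CC were not told apart (1.14 ± 0.48 higher in GC, adjusted p = 0.18), although they were without GC 1 (1.66, adjusted p = 0.015).

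PDE8A degrades cAMP and is little affected by common inhibitors. It was the only one of the 10 genes above background on all 20 arrays at the level of each sequence. Levels were -0.05, 0.12, -0.01 and -0.18 in TH, and 0.84, 1.01, 0.77 and 0.85 in GC. They were 1.25, 1.19, 1.11 and 1.05 in CC and -0.49, -0.05, -0.04 and -0.27 in OO. The arrays of GC and CC lay above all those of TH and OO, which overlapped. GC exceeded TH by 0.90 ± 0.14, or 1.86-fold (adjusted p = 0.00017), and CC exceeded TH 2.27-fold and OO 2.57-fold (adjusted p = 7.5e-06 and 3.2e-07). CC and GC were not told apart (0.28 ± 0.14, adjusted p = 0.26), nor were TH and OO (0.18 ± 0.14, adjusted p = 0.26). The difference of OO from the somatic mean, -0.87 ± 0.11, was -0.26 in the deposited table (adjusted p = 0.065). Both sequences showed the same order of group means for the somatic cells. PDE4D, which also degrades cAMP, gave no level in any group.

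PRKG1 encodes a cGMP-dependent protein kinase, best known from smooth muscle and platelets. Its levels were -1.66, -1.17, -1.23 and -1.39 in OO and -2.06, -1.88, -2.18 and -4.15 in TH, all above background. No spot was above background on any GC, CC or CC-IVM array, where levels ran from -6.94 to -5.56. OO exceeded TH by 1.20 ± 0.40, or 2.31-fold (adjusted p = 0.014), and without TH 4 the difference of TH from OO was -0.68 (adjusted p = 0.019). OO exceeded GC at least 12.7-fold and CC at least 16.6-fold, and TH exceeded GC at least 5.52-fold and CC at least 7.18-fold. TH 4 was about 2 log2 units below the other TH arrays, and the difference of TH from the mean of GC and CC was 3.80 ± 0.34 (adjusted p = 4.5e-07) with it and 4.33 (adjusted p = 4.1e-09) without it. All 5 smooth muscle and pericyte markers were above background in TH, with a summed level of 201 to 216 against 5.77 to 19.9 in GC, 2.21 to 3.72 in CC and 0.931 to 1.41 in OO. The sum on TH 4 was 203. Of these markers, MYH11 (4.00 against 2.25 to 2.61) and DES (1.69 against -0.14 to 0.37) were higher on TH 4 than on the other TH arrays, RGS5 (0.10 against 0.22 to 0.87) and ACTA2 (7.26 against 7.35 to 7.50) were lower, and TAGLN lay among them. The 3 endothelial markers had a summed level of 4.39 on TH 4 and of 1.35 to 2.70 on the others. Of these, VWF was higher on TH 4 than on the other TH arrays (1.62 against -1.33 to 0.18). PECAM1 lay among them (0.37 against -0.09 to 0.63), and CDH5 was not above background on TH 4. The part of smooth muscle, pericyte and endothelial cells in the PRKG1 signal of TH was not tested.

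Compared with the mean over the somatic cell types before maturation, 4 of the 10 genes were higher in OO (PDE5A, PDE3A, PRKG1 and GPR3) and 4 were lower (NPR3, NPR2, NPPC and PDE8A), beside 32.9% and 38.3% of all genes. The median difference of the 10 genes was 0.09, and that of all genes was -0.52. Against the mean of GC and CC, 4 were higher in TH (PRKG1, PDE5A, ADCY3 and PDE3A) and 3 were lower (NPR3, PDE8A and NPR2), beside 14.3% and 18.5% of all genes. The medians were 0.58 and -0.11. Between CC and GC, the median of the 10 genes was -0.34 and that of all genes was -0.16.

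**Figure D3:**
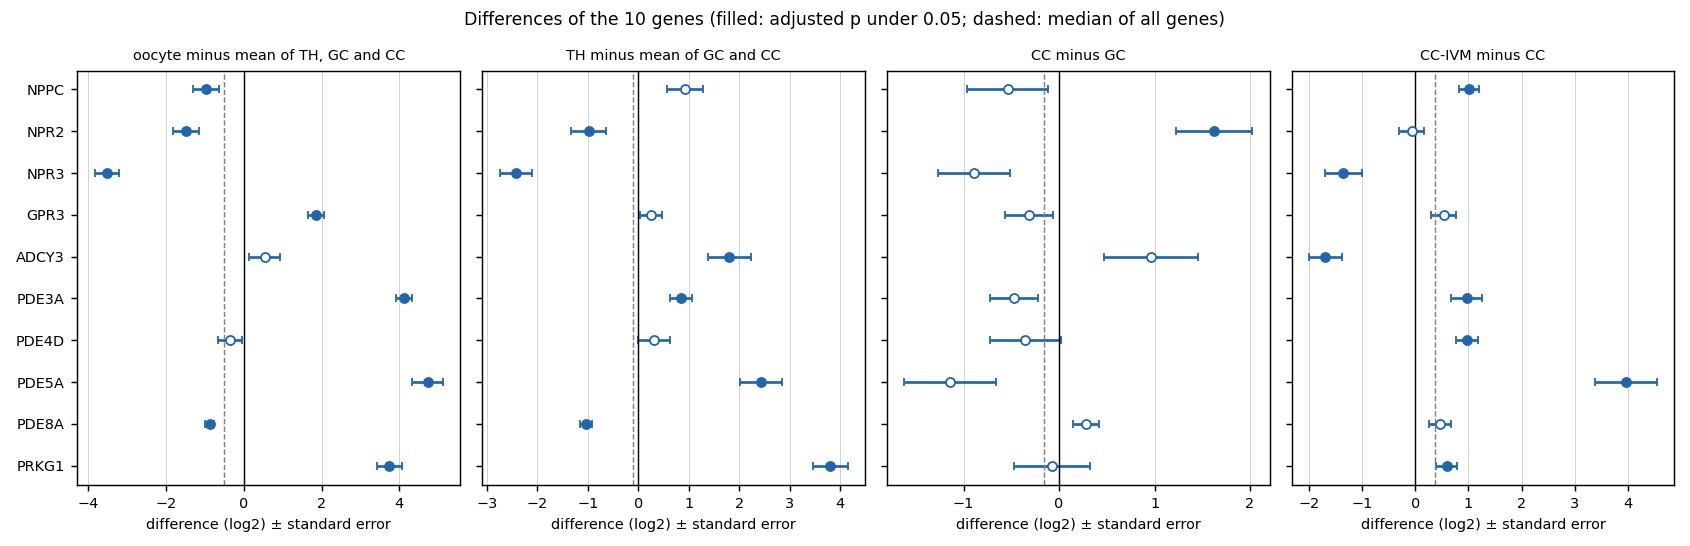
Difference of each of the 10 genes (x axis, log2, with its standard error) in 4 comparisons, filled where the adjusted p was under 0.05. The dashed line is the median of all 22550 genes. NPR2 is the only filled point for CC minus GC, and PDE5A stands farthest right for CC-IVM minus CC.

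After 4 h of maturation, PDE5A was the gene of the 10 that moved most in CC. Its levels were -4.75, -2.53, -2.62 and -2.29 in CC-IVM 1 to 4, above background on all, against -7.18, -5.75, -7.58 and -7.55 in CC. By these medians, every array after maturation lay above every CC array. By sequence 2 alone, CC-IVM 1 (-4.47) lay below CC 2 (-4.05), both above background, and the other CC-IVM arrays lay above CC 2. The difference was 3.97 ± 0.58 (adjusted p = 0.00074), at least 5.14-fold. Both PDE5A sequences rose, by 4.30 ± 0.55 (adjusted p = 0.00063) and 3.63 ± 0.84 (adjusted p = 0.011). The mean level in CC-IVM was -3.05 ± 1.14 (SD, n = 4), beside -0.91 ± 0.10 in OO, a pair that was not tested.

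Also after maturation, NPR3 fell by 1.36 ± 0.35 (adjusted p = 0.013), to levels of -4.81, -6.29, -4.65 and -5.27, with CC-IVM 2 not above background. The arrays did not overlap those of CC. No fold is given for NPR3, since its dimmer sequence was above background on 3 CC arrays and on 0 CC-IVM arrays. By its brighter sequence alone the difference was -1.18 (adjusted p = 0.075), and with normexp background correction it turned to 0.15 (adjusted p = 0.26). ADCY3 fell by 1.69 ± 0.31 (adjusted p = 0.0026), from above background on 3 of 4 CC arrays to none of the 4 CC-IVM arrays. No fold can be given for it, since the lowest detectable signal on the CC-IVM arrays, -5.12 to -4.58, lay in the range of the CC levels. ADCY3 fell by 0.18 in the deposited table (adjusted p = 0.22) and turned to 0.30 with normexp background correction (adjusted p = 0.048).

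NPPC was called higher after maturation by the median of its spots, from -5.74 to -5.55 in CC to -4.88 to -4.38 in CC-IVM (1.01 ± 0.18, adjusted p = 0.0023). This rested on the shared sequence, which was not above background on any array of either group. The sequences that were above background showed no such rise, with 0.08 ± 0.29 for NPPC-202 (adjusted p = 0.84) and 0.18 ± 0.24 for NPPC-201 (adjusted p = 0.57). PDE4D (0.98 ± 0.21, adjusted p = 0.0060), PDE3A (0.97 ± 0.29, adjusted p = 0.025) and PRKG1 (0.59 ± 0.20, adjusted p = 0.034) were called higher too, but with at most 1 array of either group above background they are given no fold. The PRKG1 call was lost with a replicate block (adjusted p = 0.075), and on leaving out any array but CC-IVM 2 or CC-IVM 3 (0.051 to 0.094). The PDE3A call was lost without CC 1 (0.066) or CC 2 (0.050).

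PDE8A was at 1.65, 1.21, 1.88 and 1.72 in CC-IVM, of which all but CC-IVM 2 lay above the CC arrays. The difference, 0.46 ± 0.20, had an adjusted p of 0.078, and of 0.024 without CC-IVM 2. NPR2, at -4.37, -4.40, -4.10 and -3.84, lay within the range of CC, and the difference was -0.07 ± 0.24 (adjusted p = 0.83). Its sequences disagreed, however. Sequence 1 had means of -3.70 in CC and -3.54 in CC-IVM, with 8 of 8 spots above background in both. Sequence 2 had means of -4.40 and -5.04, with 8 and 3 of 8 spots above background. Its spot 2 was called lower (-1.02, adjusted p = 0.043, limma over all spots), and its spot 1 was not (-0.27, adjusted p = 0.58). The counts of 5 genes higher and 2 lower stand beside 30.3% and 15.5% of all genes, and 14 of the 30 spots were called, beside 45.7% of all spots.

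All genes had a median difference of 0.37 between CC-IVM and CC, and 66.1% of the called genes were higher. With quantile normalization the median was 0.01 and 43.2% of the called genes were higher, and of the 10 genes only PDE5A and NPPC then remained called higher. The CC-IVM arrays had fewer probes well above background (54.2 to 58.3%, against 58.9 to 62.8% in CC) and a lower 75th percentile of intensity (284 to 396 against 536 to 657). All 4 were on a slide of their own, so slide and maturation cannot be told apart. Of the cumulus expansion genes, HAS2 went from a mean of -5.56 in CC to 2.20 in CC-IVM (adjusted p = 3.3e-06), whereas PTX3 was at -0.66 and -0.77 (adjusted p = 0.86). Among the 3 blood markers, whose summed level was 0.0843 to 0.21 in CC and 0.448 to 0.966 in CC-IVM, CD68 was above background on all these arrays, at means of -2.89 and -0.73. PTPRC was above background on none, and HBB on 2 CC-IVM arrays only. The 6 oocyte markers had a summed level of 0.561 to 3.00 in CC and 0.161 to 0.56 in CC-IVM. Their part in these results was not tested.

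A list of 63 further genes of cyclic nucleotide signalling was examined, of which 62 were found on the array and 54 were above background on 3 or more arrays of some group. In OO against the somatic mean, 28 of the 62 were higher, 27 were lower and 7 did not pass, with a median of -0.09. That is 45.2% higher and 43.5% lower, beside 32.9% and 38.3% of all genes, whose median was -0.52. GUCY1B1, a subunit of the nitric oxide receptor and 1 of 4 guanylyl cyclases that were lower out of 5 listed, beside that 38.3%, was at -5.27 in OO (difference -4.28 ± 0.22, adjusted p = 7e-11). PRKAR2B, a regulatory subunit of the cAMP-dependent kinase, was at -4.32 in OO and 1.95 in the somatic mean, lower by 6.27 ± 0.14 (adjusted p = 6.7e-15). ADCY4, an adenylyl cyclase, was also called lower (adjusted p = 1e-06), but it was not above background in OO, and the bound was 91.7-fold for TH over OO, 2.08-fold for GC over OO, and none for CC. PDE6D, a prenyl-binding protein named as a phosphodiesterase subunit, was higher by 3.51 ± 0.12 (adjusted p = 5.4e-13), and GNAI1, an inhibitory G protein subunit, by 3.35 ± 0.14 (adjusted p = 6.7e-12). PDE1C, a calmodulin-dependent phosphodiesterase, was at least 4.46-fold higher in OO than in GC.

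In TH against the mean of GC and CC, 21 of the 62 were higher (33.9%) and 13 were lower (21.0%), with a median of 0.33, beside 14.3% and 18.5% of all genes and a median of -0.11. ADCY4 was at 0.62 in TH and -5.40 in the mean of GC and CC (difference 6.02 ± 0.48, adjusted p = 1.2e-07). PDE1A, another calmodulin-dependent phosphodiesterase, was at least 11.7-fold higher in TH than in GC, and RAPGEF4, a cAMP-activated exchange factor, at least 7.05-fold. Lower in TH were PDE7B by 1.80 ± 0.19 (adjusted p = 2.2e-06) and the efflux transporter ABCC5 by 1.21 ± 0.26 (adjusted p = 0.0018). ADCY9 was called lower too (adjusted p = 5.1e-06), but it was above background in neither TH nor GC and no fold can be given. Between CC and GC, 6 were higher (9.68%) and 3 were lower (4.84%), with a median of -0.10, beside 5.28% and 4.61% of all genes and a median of -0.16. ADCY1 was above background on all 4 CC arrays and on no GC array, at least 1.13-fold higher (adjusted p = 0.017), ADCY9 likewise but without a bound above 1, and the kinase anchor AKAP1 was higher by 0.91 ± 0.18 (adjusted p = 0.0040). PKIG, an inhibitor of the cAMP-dependent kinase, was lower in CC by 0.89 ± 0.15 (adjusted p = 0.0016). PDE1A and RAPGEF4 were lower too, with at most 2 arrays of either group above background.

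After maturation, 20 of the 62 were higher in CC (32.3%) and 11 were lower (17.7%), with a median of 0.47. Both shares lay near those of all genes, 30.3% and 15.5%, whose median was 0.37. PKIB, another inhibitor of the cAMP-dependent kinase, went from -4.15 ± 0.95 to 0.86 ± 0.81 (SD, n = 4), a difference of 5.01 ± 0.52 (adjusted p = 9.4e-05). The cAMP phosphodiesterase PDE4B rose at least 4.41-fold (adjusted p = 3.7e-05), and the kinase anchor AKAP7 by 2.89 ± 0.23 (adjusted p = 2.1e-05). RAPGEF3, a cAMP-activated exchange factor, fell by 3.31 ± 0.23 (adjusted p = 1.2e-05), the adenylyl cyclase ADCY6 fell by 3.29 ± 0.28 (adjusted p = 3.2e-05), and the guanylyl cyclase GUCY2C fell by 2.57 ± 0.39 (adjusted p = 0.00084). The map of group means shows these genes side by side.

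**Figure D4:**
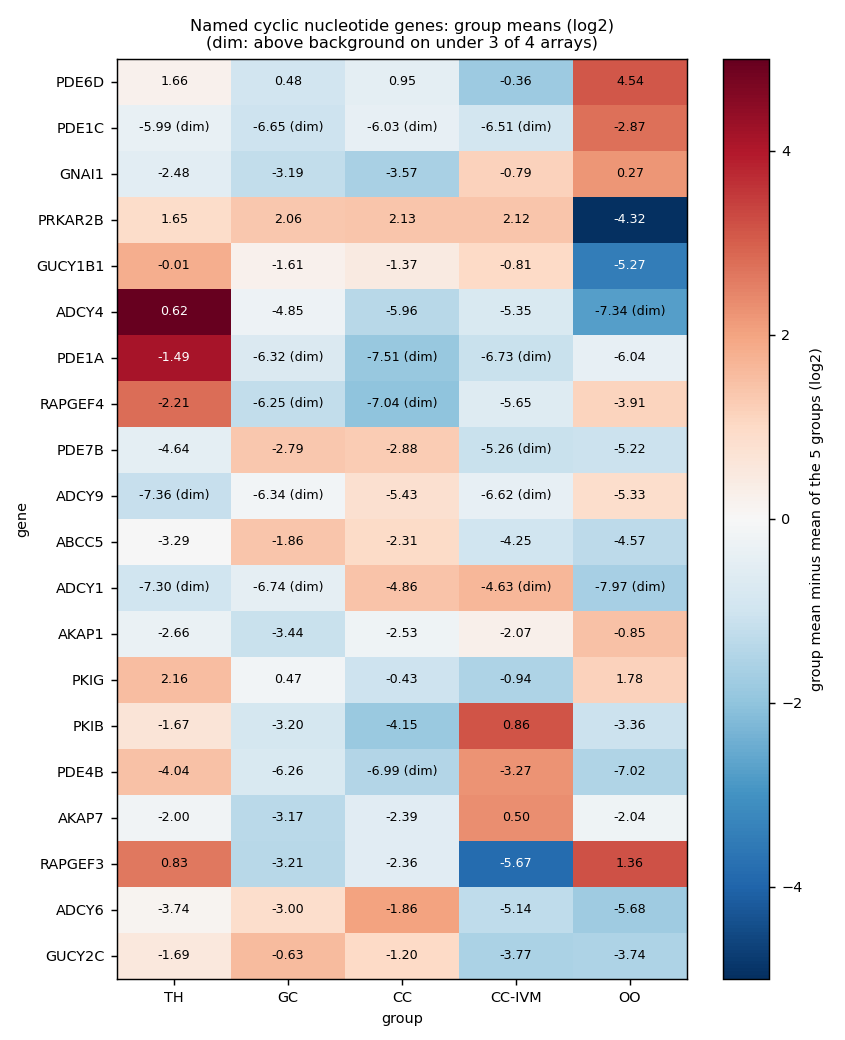
Group means (numbers, log2 processed intensity relative to the array's 75th percentile) of the named genes of cyclic nucleotide signalling (y axis) in the 5 groups (x axis, n = 4). Colour is the distance from the mean of the 5 groups, and dim marks a group with under 3 arrays above background. PKIB, PDE4B and AKAP7 are red and RAPGEF3 is dark blue in CC-IVM.

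The genes most like 8 of the 10 over the 20 arrays were found among 14407 genes with a symbol and signal above background on at least 4 arrays. Correlations over 20 arrays in 5 groups mostly follow the group means and are given as descriptions. PDE3A was closest to RSPO1 (r = 0.99), PRPF18 and ELOVL3 (both 0.98), which were also highest in OO. GPR3 was closest to TRPV6, KIF26B and KLRG2 (all 0.97), PRKG1 to C1QL3, FREM1 and PLAC1 (all 0.98), and PDE5A to SH2B3, NEDD4L and LRRC8C (0.94 to 0.95). NPR3 was closest to DACH1 (0.96), LMOD2 (0.95) and AMHR2 (0.94), the last of these the receptor of anti-Müllerian hormone. PDE8A was closest to INHBB, TBCK and ZNF536 (all 0.97). NPR2 was closest to VEGFA, FADS1 and WNT11 (all 0.91), and NPPC to EPHB1 (0.89), MN1 and CYYR1 (both 0.88). For NPPC this used the median that mixes its disagreeing sequences, not the NPPC-202 signal, and EPHB1 and MN1 were dim, with group means of -5.86 or lower.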

How the data were processed

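Cy3-labelled RNA of 20 samples was hybridised to Agilent 60K bovine arrays with probes of 60 bases. For each array the authors deposited the output of Agilent Feature Extraction 10.7.3.1, in which the intensity of a spot is given raw and as a processed signal after background subtraction, with no normalization between arrays, together with other columns of marks of 0 or 1 for outliers and signals well above background. They also deposited 1 table of log2 values, each column of which equalled log2 of the median pixel signal minus the median of the array within 5e-09, so that its background was not subtracted. Background correction moves dim spots most.

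Groups and replicate numbers came from the sample titles. Control spots, and spots that the scanner software marked as outliers, were removed. Each array's log2 processed signals were centred on their 75th percentile, and spots of a gene were summarised by their median. Of 61325 probes, 9779 had no gene name, of which 734 were named by accession from the RefSeq table of an ARS-UCD2.0 assembly, used for names only. The moderated tests of limma 3.58.1, run in R 4.3.3, used 16 arrays for the cell types and 8 arrays for maturation, with Benjamini–Hochberg adjustment across the 22550 genes and a threshold of 0.05. Single spots were fitted in the same way. Python 3.11.15, pandas 2.3.3 and matplotlib 3.10.9 served for tables and plots. A group above background on fewer than 3 of 4 arrays was given as a bound. For it, each array of that group entered at its measured value or at the lowest signal marked as well above background on that array, whichever was larger. The number of arrays limits the precision.

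The named genes of cyclic nucleotide signalling are, per comparison and direction, the 3 with the largest change among those past the threshold whose arrays did not overlap. Markers for theca, granulosa and cumulus, oocyte, smooth muscle and pericyte, endothelial and blood cells and for cumulus maturation (29 listed, 27 found) were used only to check the labels and to set beside results. The 4 granulosa and cumulus markers had a summed level of 110 to 451 in GC and 381 to 769 in CC and CC-IVM, against at most 33.4 in TH and 3.02 in OO, and the 3 endothelial markers reached 1.35 to 4.39 in TH and at most 2.01 elsewhere. The 10 genes, the lists and the tests were chosen with earlier results of these data known. Replicates 1 and 2 of TH, GC, CC and OO were on 1 slide and replicates 3 and 4 on another. Same-numbered arrays of TH and GC deviated together (r = 0.20 to 0.44 over genes), and those of the other pairs of groups did not do so throughout. The alternatives were other scalings, background corrections, summaries over spots, a filter on dim genes, 1 fit of all arrays, replicate and slide blocks, single slides, the methods' analysis of variance, and leaving out each array. The normexp background correction added an offset of 50 to each signal before log2 and centring.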

Additional observations from a re-analysis of the deposited data

Results flagged for a closer look

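In 5 of 50 sets of 4 arrays (10 genes in 5 groups), 1 array stood apart by more than Dixon's critical value, which chance exceeds in about 1 of 20 groups. PRKG1 on TH 4 was at -4.15, with the other TH arrays at -2.18 to -1.88. PDE5A on CC-IVM 1 was at -4.75, above background, with the others at -2.62 to -2.29. Without this array, PDE5A was higher after maturation by 4.53 (adjusted p = 0.00022). ADCY3 on OO 2 was at -4.89, not above background, with the others at -4.23 to -4.19. NPR3 on OO 2 was at -6.32, with the others at -8.42 to -8.09, and PDE4D on TH 1 was at -5.81, with the others at -7.24 to -7.21. For these last 2 genes, no array of the group was above background.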

How the results depend on the processing

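Of 1352 values of single genes under alternative settings, 1260 kept their direction and their side of the threshold, 57 lost the call, 29 gained it and 6 reversed. All 6 reversals came with normexp background correction: GPR3 (-0.76) and ADCY3 (-0.80) in OO against the somatic mean, PDE3A in TH (-0.087), and NPR2 (0.46), NPR3 (0.15) and ADCY3 (0.30) after maturation. With that correction the median of all genes moved to -1.30 for OO and to 0.57 after maturation, 7 of the 10 genes were lower in OO, 1 was higher in TH, 0 were higher in CC than in GC, and 9 were higher and 0 lower after maturation. The cause was not tested, including the part of the offset of 50 that this correction adds to each signal before log2. Genes higher after maturation, 5 in the main setting, numbered 2 with quantile normalization, 2 with the filter on dim genes, which tested 6 of the 10, 3 with the mean over spots and 3 with the brightest probe. Genes lower after maturation numbered 1 in the deposited table and 1 with the brightest probe. Between CC and GC, 0 genes were higher within slide 1 and 0 within slide 2, and 1 was lower with quantile normalization (NPR3), in the deposited table (PDE5A) and within slide 2 (PDE5A). Leaving out 1 array gave 0 to 1 genes higher and 0 to 1 lower in CC than in GC, and 3 to 6 higher after maturation.

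With the replicate number as a block, 4 of the 10 genes were higher after maturation, PRKG1 losing its call (0.59, adjusted p = 0.075), and no other call of the 10 genes changed in the 5 comparisons. Slide as a random block, chosen after seeing the data, gave 7 genes higher after maturation and 2 lower, GPR3 and PDE8A being added. The estimated correlation within slides was -0.261, all CC-IVM arrays share 1 slide, and the calls over all genes went from 10332 to 15312, so that this fit does not adjust maturation for slide and supports no call. Slide as a fixed block and single slides could not be fitted for maturation. In OO against the somatic mean, 36.7 to 52.1% of the called genes were higher under other scalings of the processed signal, against 46.2%, and in CC against GC 43.0 to 63.1%, against 53.4%. Signal over background limits GPR3, PDE4D and every group that was not above background.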
